A study of Rattus norvegicus with 8 samples.

Results

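The transcriptome of rat liver after perfusion with normoosmotic buffer was described from 4 arrays, which are all the normoosmotic samples among the 8 arrays of the series. They were chosen by their titles. All probe sets that carry exactly 1 gene symbol were used, and a gene with several was read from the probe set with the highest mean over the 4 arrays, which gave 14511 genes. The livers came from male Wistar rats of 6 to 10 weeks and were perfused with a bicarbonate-buffered salt solution (Krebs-Henseleit) of 305 mosm/L, and the samples belong to the time point at 180 min. RNA was taken from homogenised tissue, and 1 µg was labelled for an Affymetrix whole-transcript array. The other 4 arrays, from livers perfused with buffer of 225 mosm/L, enter here only for the spread of the same genes, with no contrast of levels. No unperfused liver was used here, so a high or low level is no measure of what perfusion changed. Nothing in the labels states that the 4 samples came from separate animals. A p-value therefore sets a gene's signal against the scatter of these 4 samples only, and that scatter may be technical.

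The liver parenchyma consists mostly of hepatocytes, which secrete most plasma proteins, make urea and bile, store and release glucose and detoxify foreign compounds. Around them lie sinusoidal endothelial cells, Kupffer cells (the resident macrophages) and stellate cells, which store vitamin A. An isolated liver perfused with cell-free buffer keeps this architecture, while blood is flushed from its vessels. Chemokines, cytokines, immediate early genes, heat shock proteins and metallothioneins are known as the transcripts that respond within hours to handling, bacterial products, metals or oxidants. Their levels are therefore given beside those of the liver's own products.

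Values are log2 signals as deposited, where 1 unit is a 2-fold difference in signal. To say which genes stood out from near-background signal, each array's 95th percentile of 1105 odorant receptor genes was taken as the near-background level, which was 3.10, 3.00, 3.02 and 3.18 in replicates 1 to 4. Of the 14511 genes, 10093 (69.6%) lay above it (limma, one-sided, Benjamini-Hochberg adjusted p under 0.05), among them 37 of the odorant receptor genes. The median gene had a mean of 4.55. A rank orders probe sets by signal, which also depends on how well each probe binds, so ranks and membership in the highest 5% of genes (727 genes, 5.01%) describe signal and not numbers of transcripts. The deposited arrays had medians over all probe sets from 3.92 to 3.98 and a median SD between arrays of 0.16 per gene. RMA, named among the processing tools, is known to equalise array distributions, so near-equal medians do not show that the samples were alike. The number of arrays, 4, limits the precision of each SD. Because whole tissue was measured, fewer cells of a type and less RNA per cell cannot be told apart.

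Metallothioneins and plasma proteins filled the top of the ranking. The highest mean signal was that of Mt2A, a metallothionein, a small cysteine-rich protein that binds zinc and copper, with 13.30, 13.30, 13.29 and 13.25 in replicates 1 to 4. Alb, serum albumin, ranked 2nd with 13.16, 13.09, 13.07 and 13.12, and the second metallothionein gene, Mt1, ranked 3rd with 12.71, 12.89, 12.86 and 12.60. Their SDs between arrays were 0.02, 0.04 and 0.14. The next places were held by Ahsg (fetuin A, a carrier of calcium phosphate), Serpina3n (a protease inhibitor of the acute phase), Hpx (hemopexin, which binds haem), Ttr (transthyretin), Tf (transferrin), Fgg (a fibrinogen chain) and Gc (the vitamin D binding protein), with means from 12.41 to 12.64. Of the 20 genes with the highest mean, those that are neither plasma proteins nor metallothioneins were Cat, catalase (12.21 ± 0.06, SD, n = 4), and Rps29, a protein of the small ribosomal subunit (12.16 ± 0.18). The SD of these 20 genes ranged from 0.02 to 0.24. Signals this high can be compressed on an array, and whether that held these SDs down was not tested.

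The sequence in front of Mt2A is shown because the gene headed the ranking and because metallothionein promoters are known for repeated metal response elements, which bind the zinc-sensing factor MTF1. The 250 bases upstream of its start (RefSeq, GRCr8, chr19:10838709-10838958, minus strand) are printed 5′ to 3′, with capitals at matches of TGCNCNC on either strand, a form that is broader than the core of the element.
Mt2A: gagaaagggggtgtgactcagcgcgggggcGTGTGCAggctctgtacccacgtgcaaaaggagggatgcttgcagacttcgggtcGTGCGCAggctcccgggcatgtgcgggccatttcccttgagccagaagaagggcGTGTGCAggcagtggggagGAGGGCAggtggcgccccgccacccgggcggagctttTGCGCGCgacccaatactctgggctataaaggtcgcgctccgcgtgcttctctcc
There were 5 matches in this window. At least 1 match was found in 43.4% of the 33469 promoters of the table, and at least 5 in 0.37%. The motif was chosen to fit elements known in metallothionein promoters, and 5 is this gene's own count. These shares are therefore no evidence about Mt2A. A match is a description of letters, and binding was not measured.

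Secreted proteins of the hepatocyte were high as a class and closely alike between arrays. All 26 measured plasma protein genes stood above the near-background level, and 24 of them were in the highest 5% of genes, with a median of 11.73. Serpina1, alpha-1-antitrypsin, had the narrowest spread of those named here, with 12.15, 12.17, 12.14 and 12.14. The exception was Serpina7, which encodes the thyroxine-binding globulin, at 9.26, 7.37, 6.19 and 7.88. It was the only member of this list with an SD over 0.5, a spread found in 221 of the 10093 genes above the near-background level (2.19%).

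Of 17 apolipoprotein and lipoprotein genes, all 17 passed and 13 were in the highest 5%. Apoc3 (12.35 ± 0.12), an inhibitor of triglyceride clearance, Apoe (12.30 ± 0.14), a ligand of lipoprotein receptors, and Apob (12.18 ± 0.10), the scaffold of very low density lipoprotein, led this list (SD, n = 4). Lpl, lipoprotein lipase, which is made mainly outside the hepatocyte, was at 5.11, 5.10, 3.94 and 4.59, lowest in replicate 3. For coagulation and fibrinolysis 21 of 22 genes passed, with the fibrinogen chain genes Fgg, Fga and Fgb at 12.46, 12.30 and 12.03. Plasminogen (Plg, 11.65 ± 0.07), antithrombin (Serpinc1, 11.01 ± 0.08) and prothrombin (F2, 10.82 ± 0.09) followed. The tissue plasminogen activator gene Plat, a product mainly of endothelium, was the variable member, at 7.84, 8.12, 9.0 and 8.86, lower in replicates 1 and 2 than in replicates 3 and 4. All 17 complement genes passed, led by C3, the central component of the cascade, at 12.29, 12.21, 11.77 and 12.10, and 0 of them had an SD over 0.5.

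Acute phase genes, which interleukin 6 and interleukin 1 are known to induce in hepatocytes, were at the top of the range with a few exceptions. All 16 measured genes passed and 12 were in the highest 5%, with a list median of 10.81. Haptoglobin (Hp), which binds free haemoglobin, was at 12.19, 12.21, 12.01 and 11.98 and ranked 26th. Hepcidin (Hamp), the hormone that limits iron export, read 11.48, 11.64, 10.98 and 11.40, and ceruloplasmin (Cp), a copper oxidase, 12.15, 11.86, 11.86 and 11.90. C-reactive protein (Crp) had a mean of 11.34 ± 0.04. By contrast A2m, alpha-2-macroglobulin, a strongly induced acute phase protein of the rat, stood at 7.78, 6.85, 6.24 and 6.05 and ranked 3190th. Lcn2, lipocalin 2, which withholds iron from bacteria, read 10.92, 10.86, 9.76 and 10.25. A2m and Lcn2 were the members with an SD over 0.5 (0.78 and 0.55), and both were higher in replicate 1 than in replicates 3 and 4.

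**Figure D1:**
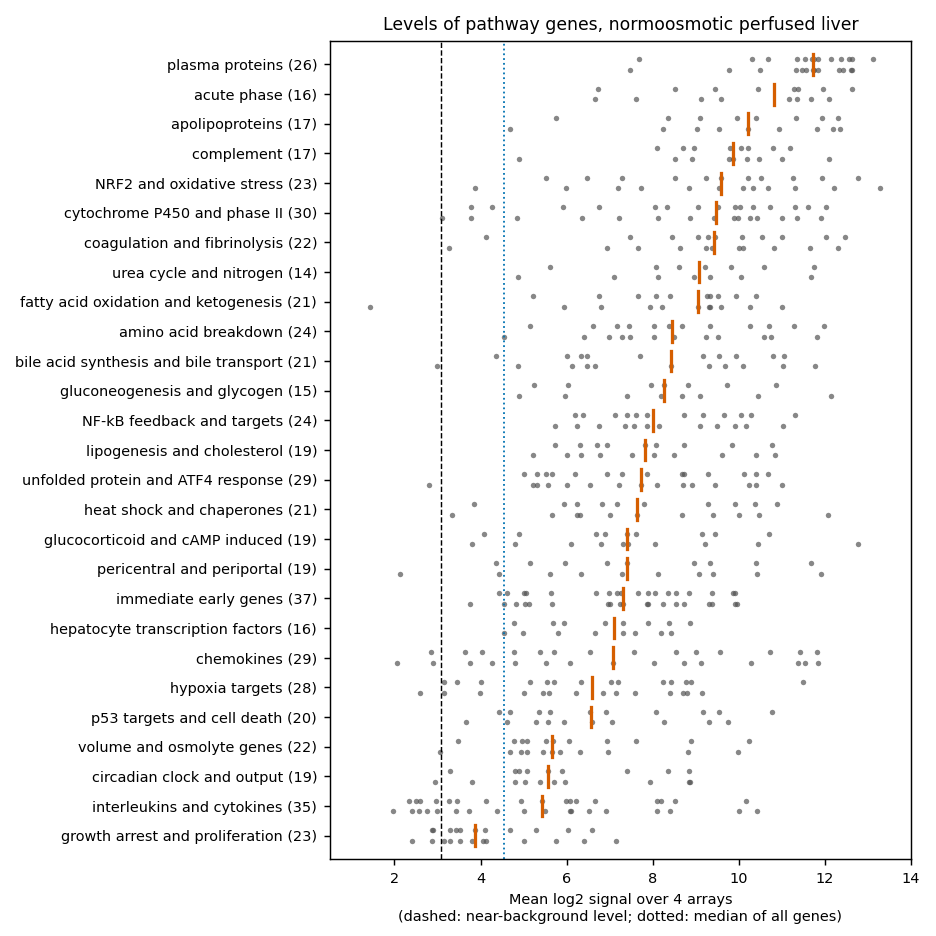
Mean log2 signal over the 4 arrays (horizontal axis) of every measured gene in 27 gene lists, 1 point per gene, with the number of measured genes in brackets and an orange bar at the list median. Plasma proteins have the highest median (11.73) and proliferation genes the lowest (3.86), while the dotted line marks the median of all genes (4.55) and the dashed line the near-background level.

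Enzymes of nitrogen metabolism were high. All 14 measured urea cycle and nitrogen genes passed, 8 in the highest 5%. Cps1, carbamoyl phosphate synthetase, which fixes ammonia in mitochondria, read 11.72, 11.87, 11.77 and 11.60, and Ass1, argininosuccinate synthase, 11.49, 11.86, 11.67 and 11.70. Arginase (Arg1) read 9.42, 9.50 and 9.49 in replicates 1 to 3 and 8.86 in replicate 4. Nags makes N-acetylglutamate, the activator that carbamoyl phosphate synthetase needs, and it was the variable member at 7.89, 7.70, 6.01 and 6.76. Of 24 genes of amino acid breakdown all passed and 10 were in the highest 5%. Bhmt, which remethylates homocysteine with betaine, led with 11.48, 12.28, 11.92 and 12.20, and Hpd, an enzyme of tyrosine breakdown, had 11.82 ± 0.07 (SD, n = 4). Serine dehydratase (Sds) had 5.89 in replicate 1 and 4.74 to 5.13 in the other arrays.

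Genes of glucose and fatty acid metabolism covered a wide range of levels. Igfbp1, an insulin-repressed protein that binds insulin-like growth factors, ranked 22nd with 12.18, 12.07, 12.24 and 12.07. Pdk4, the kinase that shuts pyruvate dehydrogenase, had 10.80, 11.01, 11.43 and 10.20. Slc2a2, the glucose transporter of hepatocytes, read 10.71, 10.29, 10.57 and 10.20, and Fbp1, fructose bisphosphatase of gluconeogenesis, 9.81, 9.81, 9.70 and 9.54, both in the highest 5%. Lower signals came from other genes of gluconeogenesis and glucose release. Pck1, phosphoenolpyruvate carboxykinase, was at 7.90, 7.31, 7.69 and 6.73, and G6pc1, the catalytic subunit of glucose-6-phosphatase, at 5.95, 5.63, 6.37 and 5.89. All 15 measured genes of gluconeogenesis and glycogen passed, and Pdk4, Pck1 and Gys2, the liver glycogen synthase (8.98, 7.55, 8.49 and 7.73), had an SD over 0.5. In fatty acid oxidation and ketogenesis 20 of 21 genes passed and 11 were in the highest 5%, led by Acsl1, which activates fatty acids (10.99 ± 0.10), and Fabp1, the liver fatty acid binding protein (10.39 ± 0.05). Cpt1a, which admits fatty acids to mitochondria, read 9.82, 10.05, 10.48 and 9.38. In replicate 4, Pdk4, Pck1 and Cpt1a each had their lowest value.

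Cytochrome P450 and conjugating enzymes were high and varied more than most lists. Of 30 measured genes 29 passed, 17 were in the highest 5% and 9 had an SD over 0.5. Gstm1, a glutathione transferase, had 12.02 ± 0.07 (SD, n = 4), Cyp2e1, which oxidises ethanol, 11.94, 11.77, 11.96 and 11.97, and Cyp2d2, a drug-metabolising P450, 11.30 ± 0.07. Cyp1a2, an oxidase of aromatic amines, was less even at 10.38, 10.45, 10.92 and 9.93. Por, the reductase that passes electrons to all microsomal P450 enzymes, was higher in replicates 1 and 3 (8.46 and 8.71) than in replicates 2 and 4 (7.69 and 7.38). The phenobarbital-inducible Cyp2b1 (4.54, 4.12, 5.02 and 3.37) and Cyp2b2 (7.25, 6.20, 6.53 and 5.46) were low and variable. Sult2a1, a sulfotransferase of steroids, read 9.27, 9.77, 10.65 and 9.83, with replicate 3 highest. The remaining variable members are described with the sex-dependent genes and the Ugt2b genes.

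For bile acid synthesis and bile transport, 20 of 21 genes passed and 10 were in the highest 5%. The transporters that take up bile acids and organic anions from blood, Slc10a1 and Slco1b2, had means of 11.05 ± 0.23 and 11.02 ± 0.11, and the canalicular export pumps Abcc2 and Abcb11 had 10.80 ± 0.23 and 10.09 ± 0.30 (SD, n = 4). Slc10a1 read 11.39 in replicate 1 and 10.89 to 10.97 in the other arrays. Cyp7a1, the rate-limiting enzyme of bile acid synthesis, stood at 7.81, 6.14, 6.13 and 5.24 and ranked 3884th. The sterol exporter genes Abcg5 (7.67, 6.08, 6.40 and 5.71) and Abcg8 (5.68, 4.64, 4.81 and 4.32) and the anion transporter gene Slco1a4 (9.43, 8.24, 7.67 and 8.38) also had an SD over 0.5. These 4 variable members were all highest in replicate 1, and 14 of the 21 listed genes were, against 4106 of all 14511 genes.

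Transcription factors of the hepatocyte had moderate signals. All 16 measured genes passed and 0 were in the highest 5%, with a median of 7.10. Nr3c1, the glucocorticoid receptor, read 8.80, 8.86, 8.97 and 8.82, Prox1, a homeobox factor of hepatocytes, 8.35, 8.76, 8.26 and 8.17, and Hnf4a, a nuclear receptor central to hepatocyte identity, 8.66, 8.64, 8.49 and 7.92. Onecut1 (6.49, 5.47, 5.54 and 5.22) and Esr1, the oestrogen receptor gene (3.83, 5.04, 4.95 and 4.33), had an SD over 0.5. Among genes known to mark zones of the lobule, 18 of 19 passed and 8 were in the highest 5%, so that signals of both the pericentral zone (Cyp2e1, Cyp1a2) and the periportal zone (Ass1, Arg1) were present in each array.

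Some chemokine transcripts stood among the highest signals of the perfused liver. Of 29 measured chemokine genes 26 passed and 10 were in the highest 5%, and the list median was 7.07, against 11.73 for the plasma proteins. Cxcl10, an interferon-induced attractant of T cells, read 11.72, 11.82, 11.83 and 11.95 and ranked 40th (adjusted p = 7.03e-14, limma). Ccl2, which attracts monocytes, read 11.82, 11.79, 11.84 and 11.79 and ranked 43rd, and Cxcl11, a ligand of the same receptor as Cxcl10, read 11.47, 11.74, 11.41 and 11.52. The SDs of these genes were 0.09, 0.02 and 0.14, and no array stood apart. Cxcl1, an attractant of neutrophils, had 11.30, 11.45, 11.63 and 11.31, the macrophage-derived Ccl9 had 11.59, 11.51, 11.07 and 11.36, and Ccl3 had 10.73 ± 0.12 (SD, n = 4). Cxcl2, a second neutrophil attractant, read 10.55 in replicate 2 and 10.17 to 10.22 in the other arrays.

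Not all chemokines were even between arrays. Ccl20, which attracts cells through the receptor CCR6, read 9.42, 9.52, 8.44 and 7.56, high in replicates 1 and 2 and lowest in replicate 4. Cx3cl1, fractalkine, a membrane-bound chemokine of endothelium, read 6.29, 7.21, 5.31 and 5.46. These were the members with an SD over 0.5, at 0.92 and 0.88. Cxcl3, Ccl11 and Ccl25 did not pass (means of 2.88, 2.86 and 2.07).

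The sequence in front of Cxcl10 is shown because it was the highest-ranked chemokine and because its promoter is known for an interferon-stimulated response element. The 250 bases upstream of its start (RefSeq, GRCr8, chr14:15988816-15989065, plus strand) are printed 5′ to 3′, with capitals at the match of AANNGAAA, searched on both strands, a form of the core that interferon regulatory factors bind.
Cxcl10: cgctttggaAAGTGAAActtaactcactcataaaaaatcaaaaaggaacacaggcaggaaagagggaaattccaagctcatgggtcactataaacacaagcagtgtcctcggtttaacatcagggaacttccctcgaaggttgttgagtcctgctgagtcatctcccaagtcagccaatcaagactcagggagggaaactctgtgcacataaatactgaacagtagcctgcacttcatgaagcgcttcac
This window held 1 match, and 23.3% of the 33469 promoters held at least 1. This motif too was chosen to fit an element known in the gene, so the share is no evidence about it. Binding was not measured.

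The cytokine genes Il1a, Tnf and Il1b had high signals, and the other members ranged down to near background. Of 35 measured genes 26 passed (74.3%), a share near that of all genes (69.6%). In the highest 5% were 3 of the 35, and the list median was 5.42, against 4.55 for all genes. The highest was Il1a (interleukin 1 alpha), at 10.49, 10.28, 10.27 and 10.61, Tnf (tumour necrosis factor), at 10.07, 10.34, 10.15 and 10.07, and Il1b (interleukin 1 beta), at 10.38, 9.79, 9.42 and 10.40. Il1b was higher in replicates 1 and 4 than in replicates 2 and 3. Il6, interleukin 6, a main inducer of acute phase genes, stood at 8.67, 7.98, 7.5 and 8.28 with the same array lowest, and its SD of 0.49 lay just under the threshold. The antagonist gene Il1rn, whose product blocks the interleukin 1 receptor, read 8.58, 8.71, 8.35 and 8.47.

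Growth factors and other members of the list had intermediate signals. Vegfa, the vascular endothelial growth factor, had 8.41 ± 0.15, Csf2, the cytokine GM-CSF, 8.18 ± 0.34, and Gdf15, a stress-induced member of the TGF-beta family, 6.91 ± 0.18 (SD, n = 4). Tnfsf10, the death ligand TRAIL, read 5.52, 6.74, 5.45 and 7.18, and Ltb, lymphotoxin beta, read 7.44 in replicate 2 and 5.27 to 5.64 in the other arrays. These were the cytokine genes with an SD over 0.5. The genes that did not pass were Il2, Il4, Il5, Il10, Il12a, Il13, Il17a, Lta and Tgfb2, with means from 1.96 to 2.99. For Il10, an anti-inflammatory cytokine of macrophages and lymphocytes, the values were 2.89, 2.69, 2.69 and 2.8 (adjusted p = 1, limma), which on an array is a bound and not an absence.

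**Figure D2:**
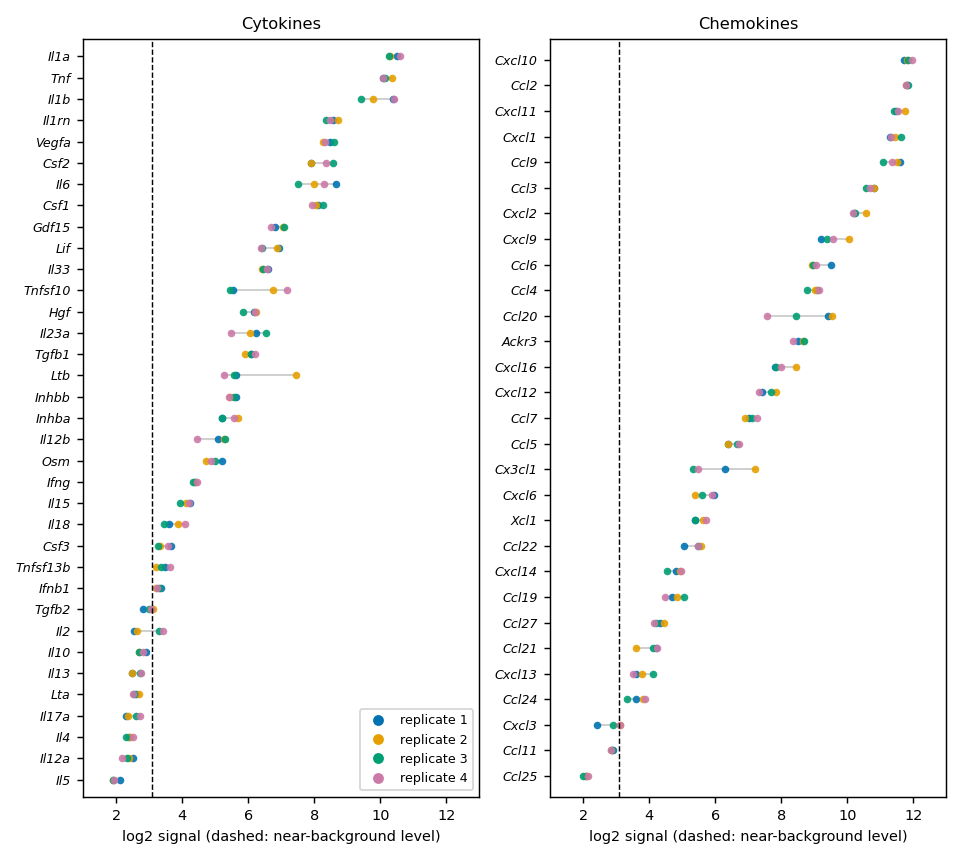
Log2 signal (horizontal axis) of 35 cytokine and 29 chemokine genes in each of the 4 arrays, 1 coloured point per array, joined by a grey line and sorted by mean. Cxcl10, Ccl2 and Cxcl11 lie between 11.41 and 11.95 in all arrays, Ccl20, Ltb and Cx3cl1 have long lines, and the genes left of the dashed near-background level include Il2, Il4 and Il10.

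Targets and inhibitors of NF-kB, the transcription factor that drives many of these chemokines, were above near background throughout. All 24 measured genes passed, 10 were in the highest 5% and the median was 8.01. Sod2, the mitochondrial superoxide dismutase, had 11.30 ± 0.14, Icam1, an adhesion molecule for leukocytes, 11.04 ± 0.08, and Nfkbia, the inhibitor that ends NF-kB signalling, 10.29 ± 0.12 (SD, n = 4). The subunit genes Rela and Nfkb1 read 9.86, 10.43, 10.22 and 10.16, and 10.03, 10.12, 10.04 and 10.04. Nos2, the inducible nitric oxide synthase, was highest in replicate 2 (8.89, 9.99, 8.61 and 9.19). The selectin genes of activated endothelium, Selp (7.91, 8.14, 7.17 and 7.02) and Sele (7.2, 7.07, 6.70 and 6.08), were higher in replicates 1 and 2 than in replicates 3 and 4. Tnfaip3 was not analysed here.

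Immediate early genes, which growth factors and stress switch on within minutes, were all above near background but unevenly high. All 37 measured genes passed and 7 were in the highest 5%. Atf3, a stress-induced repressor of inflammatory genes, read 9.63, 9.48, 10.58 and 9.91, Egr1, a zinc finger factor, 9.42, 9.85, 10.36 and 9.79, and Myc 9.06, 9.43, 9.72 and 9.30. These were highest in replicate 3. Zfp36, which destabilises cytokine messages, had 9.95 ± 0.10, and Jun 8.55 ± 0.24 (SD, n = 4). Fos, the classic member of the class, was low at 5.31, 5.0, 5.04 and 5.11, rank 6237.

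The list as a whole leaned towards replicate 3, where 23 of its 37 genes had their highest value and 3 their lowest. Over all 14511 genes, 3156 were highest in that array. The members with an SD over 0.5 were Dusp1 and Dusp5, phosphatases of MAP kinases, and the transcription factor genes Fosl1, Nr4a1, Srf and Maff. Dusp1 read 9.31 in replicate 3 and 7.4 to 8.06 in the others. Fosl1 read 6.65, 7.91, 8.39 and 7.68, and Srf, which responds to actin dynamics, 6.28, 6.90, 7.76 and 6.97. Nr4a1 departed from this order with 6.80, 7.94, 7.53 and 6.93. Actb, beta-actin, a known target of Srf that is often used as a reference gene, read 10.63, 11.07, 11.51 and 11.10, and Gapdh 11.56, 11.59, 11.50 and 11.46.

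Several chaperones of the cytosol and of the endoplasmic reticulum had high and even signals. In the heat shock list 20 of 21 genes passed, 8 were in the highest 5% and 0 had an SD over 0.5. The list median was 7.64, with means down to 3.33. The constitutive chaperone Hspa8 had 12.07 ± 0.12 and ranked 28th, and Hsp90ab1 had 10.88 ± 0.11 (SD, n = 4). With its probe sets averaged, Hspa8 had a mean of 11.65. The inducible genes Hspa1a and Hspa1b were not analysed here. In the unfolded protein and ATF4 response 28 of 29 genes passed and 9 were in the highest 5%, with a median of 7.72. Hspa5, the chaperone BiP, led this list with 11.18, 10.86, 11.08 and 10.87. Atf4, a translationally induced stress factor, read 9.28, 9.41, 9.56 and 9.56, and Ddit3, its proapoptotic target CHOP, 5.64, 6.16, 6.26 and 5.99. The cystine transporter gene Slc7a11 (6.41, 5.19, 4.66 and 5.84) and Ddit4, an inhibitor of mTOR signalling (5.65, 5.07, 5.02 and 4.30), varied. Both had their highest value in replicate 1.

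Antioxidant genes had high signals, and hypoxia targets did not as a class. All 23 measured NRF2 and oxidative stress genes passed and 14 were in the highest 5%, with a median of 9.59. Besides the metallothioneins and catalase they included the ferritin chain genes Ftl1 (11.92 ± 0.25) and Fth1 (11.27 ± 0.11), which store iron, and Hmox1, haem oxygenase 1, at 10.77, 10.42, 10.52 and 10.32 (SD, n = 4). Of 28 hypoxia targets 25 passed and 2 were in the highest 5%, Ldha, lactate dehydrogenase A (11.81, 11.78, 11.23 and 11.09), and Epas1, the hypoxia factor of endothelium (9.15 ± 0.20). With the probe sets of a gene averaged, Ldha had a mean of 10.69. Pfkfb3, an activator of glycolysis, read 9.04 in replicate 3 and 7.91 to 8.02 in the others, and Ndrg1 read 6.50, 7.44, 6.50 and 8.12. Among p53 targets and cell death genes all 20 passed and 5 were in the highest 5%. Cdkn1a, the cell cycle inhibitor p21, varied with 5.83, 6.86, 6.52 and 7.18, lowest in replicate 1.

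Among 19 genes known to be induced by glucocorticoids or cyclic AMP, all passed, 6 were in the highest 5% and 5 had an SD over 0.5. Tat, tyrosine aminotransferase, read 10.62, 10.75, 11.12 and 10.27, and Pde4b, which degrades cyclic AMP, 9.46 ± 0.05 (SD, n = 4). The list had its lowest value in replicate 4 for 10 of its 19 genes, and 3861 of all 14511 genes were lowest there. Of 22 genes of cell volume control and osmolyte transport 21 passed, with a median of 5.67. Aqp8 (10.50, 10.28, 9.97 and 10.17) and Aqp9 (9.26, 8.67, 8.81 and 8.80), water and glycerol channels of hepatocytes, and the sodium-dependent transporter of neutral amino acids Slc38a2 (10.17, 9.67, 10.11 and 9.97), led it. Nfat5, the transcription factor of the response to high osmolarity, read 6.81, 6.97, 7.17 and 6.82, and the kinase gene Sgk1 7.29, 7.76, 7.58 and 7.81. The taurine transporter gene Slc6a6 was the variable member, higher in replicates 2 and 4 (6.91 and 6.33) than in replicates 1 and 3 (5.19 and 4.97).

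The markers of hepatocytes, Kupffer cells, sinusoidal endothelium and stellate cells were all above near background, while fewer of the leukocyte and cholangiocyte markers were. Over all genes the share was 69.6%. All 11 hepatocyte markers passed and 9 were in the highest 5%. All 13 measured Kupffer cell markers, 12 of sinusoidal endothelium and 14 of stellate cells passed, with medians of 6.25, 6.49 and 6.26 and none in the highest 5%. Clec4f, a receptor found on Kupffer cells, read 6.53, 6.13, 5.62 and 6.36, and Vsig4, their complement receptor, 7.31 in replicate 1 and 6.61 to 6.70 in the others. Of the Kupffer cell markers 9 of 13 had their lowest value in replicate 3, where 3730 of all 14511 genes had theirs. Fcgr2b and Lyve1 of endothelium had 8.02 ± 0.17 and 7.99 ± 0.12 (SD, n = 4), Col3a1, a fibrillar collagen gene, had 7.73 ± 0.06, and Lrat, which esterifies vitamin A in stellate cells, read 6.47, 6.65, 6.74 and 6.92. The endothelial receptor gene S1pr1 was uneven, with 5.28 in replicate 3 and 6.58 to 6.84 in the others.

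Cholangiocyte markers passed in 6 of 9 cases, led by Epcam (6.43 ± 0.22) and with Krt19, a keratin of bile ducts, at 3.78 ± 0.14 (adjusted p = 4.55e-06, limma, SD, n = 4). With the 99th percentile of odorant receptor genes as the level, 1 of the 9 passed. Neutrophil markers passed in 2 of 12 cases, and S100a9, an abundant protein of neutrophils, stood at 3.11, 2.92, 2.99 and 3.20 (adjusted p = 0.81, limma). In T and NK cells 8 of 17 markers passed, and Cd3e, a chain of the T cell receptor complex, did not (adjusted p = 0.45, limma). Monocyte and dendritic cell markers passed in 8 of 12 cases, with Cd14, a co-receptor for endotoxin that hepatocytes also make, at 9.71, 10.11, 9.55 and 10.16, and Cd74, the class II invariant chain, at 8.25 in replicate 1 and 8.65 to 8.70 in the others. For B and plasma cells 2 of 6 passed and for platelets 3 of 5. With the 99th percentile as the level, the counts were 1 for neutrophils, 5 for T and NK cells, 5 for monocytes and dendritic cells and 1 for platelets. Markers of other tissues (brain, muscle, pancreas, kidney, lung) passed in 9 of 25 cases with a highest mean of 5.25, and in 5 at the stricter level.

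**Figure D3:**
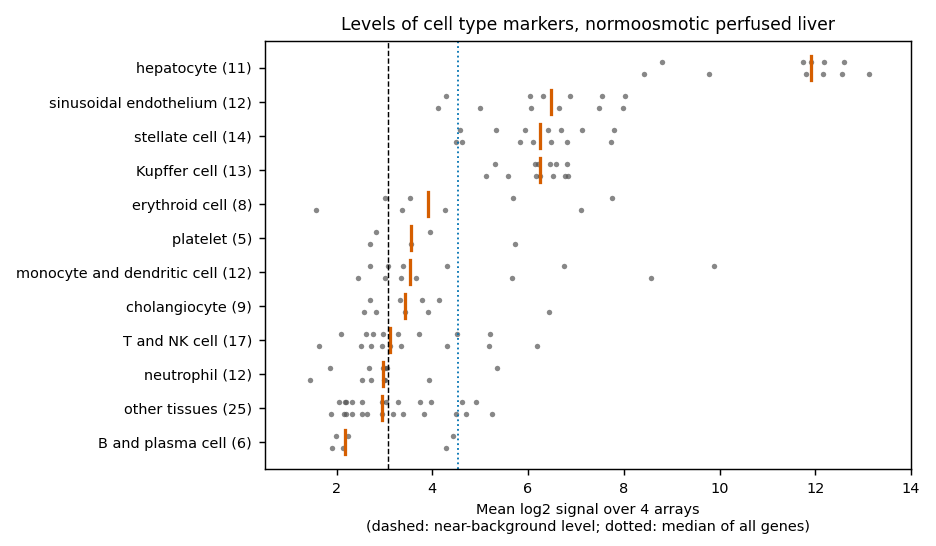
Mean log2 signal over the 4 arrays (horizontal axis) of markers of 12 cell type groups, 1 point per gene, with an orange bar at the median and the number measured in brackets. Hepatocyte markers have a median of 11.91, sinusoidal, stellate and Kupffer cell markers between 6.25 and 6.49, and neutrophil and B cell markers lie mostly left of the dashed near-background level.

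Most genes differed little between the 4 arrays. Of the 10093 genes above the near-background level, 2201 (21.8%) had an SD under 0.1, the median SD was 0.16 and the 90th percentile was 0.32. An SD over 0.5 was found in 221 and one over 1 in 27. The share with an SD over 0.5 was 1.21% among genes with a mean under 5, 2.42% between 5 and 8, 3.92% between 8 and 11 and 2.83% above 11. Near the threshold, Oat, ornithine aminotransferase, had 0.49 and was just outside, and the clock gene Cry2, at 0.50, was just inside. Every array took part in the 221 genes, since 69, 45, 68 and 39 were highest in replicates 1 to 4 and 71, 15, 63 and 72 were lowest. Over all 14511 genes, 4106, 3727, 3156 and 3522 were highest in replicates 1 to 4 and 3361, 3559, 3730 and 3861 were lowest.

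**Figure D4:**
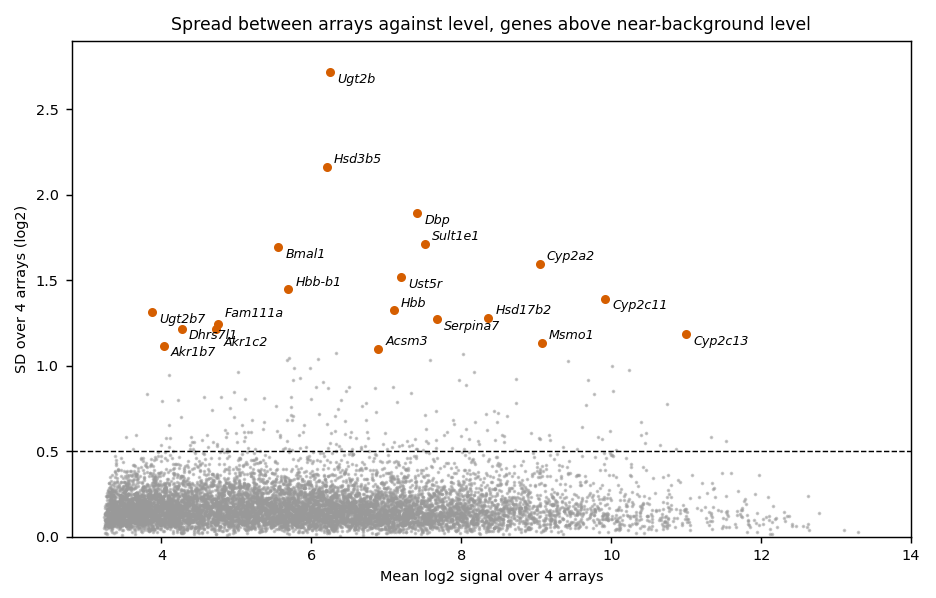
SD between the 4 arrays (vertical axis, log2) against mean log2 signal (horizontal axis) for the 10093 genes above the near-background level. The 20 genes with the largest SD are named in orange, from Ugt2b (2.71) to Acsm3 (1.10), and the dashed line marks an SD of 0.5.

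Many of the genes with the widest spread could be placed in groups of known function, which were put together after their values were seen and therefore carry no test. The largest SD, 2.71, was that of Ugt2b, a glucuronosyltransferase gene, at 8.48, 8.71, 3.65 and 4.17, high in replicates 1 and 2 and low in replicates 3 and 4, where the near-background level was 3.02 and 3.18. Its SD in the 4 hypoosmotic arrays was 3.01. Ugt2b7 (5.51, 4.34, 2.65 and 3.00) and Ugt2b1 (10.75, 9.53, 9.14 and 8.28), of the same enzyme family that conjugates steroids and drugs, were also lower in replicates 3 and 4. Members of this family are similar in sequence, and their probes can share signal.

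Male rats are known to express some genes more in liver, under the pulsatile growth hormone of males. These were lowest in replicate 3 in all 9 measured cases, against 3730 of all 14511 genes. Of the 9, 8 had an SD over 0.5, against 2.19% of all genes that passed. Cyp2c11, the main male P450, read 10.93, 10.38, 7.86 and 10.50, and Cyp2a2, a testosterone hydroxylase, 9.93, 9.42, 6.69 and 10.13. Hsd3b5, a 3-ketosteroid reductase, read 7.56, 6.38 and 7.78 in replicates 1, 2 and 4 and 3.09 in replicate 3, near the background level. Sult1e1, oestrogen sulfotransferase (8.62, 7.61, 5.06 and 8.75), Ust5r, a gene of the organic ion transporter family (8.46, 7.32, 5.03 and 7.98), and Cyp2c13 (11.92, 11.31, 9.27 and 11.51) had the same low array. Cyp3a18 (10.95, 9.86, 8.93 and 10.35) and Hao2, a peroxisomal hydroxyacid oxidase (8.77, 8.27, 6.65 and 8.21), shared it. Cyp3a2 was at 12.08, 11.51, 11.18 and 11.64, the narrowest of the 9. The female-predominant Cyp2c12 was highest in that replicate and read 10.50, 10.18, 11.32 and 8.97. Its mean of 10.24 was above that of Cyp2c11 (9.92), and whether its probes share signal with other Cyp2c genes was not tested. The other genes of that kind did not all follow it. Prlr, the prolactin receptor gene, read 4.54, 5.34, 5.51 and 5.08. Cyp3a9, lowest in replicate 3, and A1bg, highest in replicate 4, did not pass. The labels give the sex as male for all 4 samples, and they give the age only as a range for the whole series. The Y-linked Sry had a mean of 2.79, under the near-background level in all arrays, and checks nothing.

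The clock genes with a wide spread divided the arrays into replicates 1 and 3 against replicates 2 and 4. Dbp, a transcription factor that peaks late in the light phase, read 9.11 and 8.89 in replicates 1 and 3 and 6.38 and 5.26 in replicates 2 and 4. Per3 read 6.51 and 6.69 against 5.0 and 4.63. Bmal1, the activator of the clock, which peaks at the opposite time to Dbp, read 3.96 and 4.23 in replicates 1 and 3 and 7.05 and 6.99 in replicates 2 and 4, and its partner gene Npas2 had 4.17 and 4.23 against 6.01 and 5.68. Tef, Cry2 and Nr1d2 had their higher values in replicates 1 and 3 as well. Nr1d1, the repressor REV-ERB alpha, differed little at 8.63, 8.32, 8.42 and 8.09. Of the 19 clock and output genes measured 18 passed, and 7 had an SD over 0.5. The time of day of each perfusion is not in the labels used here. In the hypoosmotic arrays the SD of Bmal1 was 0.29 and that of Dbp 1.17.

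The sequence in front of Bmal1 is shown because its values fell into separate levels and because REV-ERB and ROR factors are known to act on a pair of elements in its promoter. The 250 bases upstream of its start (RefSeq, GRCr8, chr1:176766078-176766327, plus strand) are printed 5′ to 3′ with capitals at matches of TAGGTNA, searched on both strands.
Bmal1: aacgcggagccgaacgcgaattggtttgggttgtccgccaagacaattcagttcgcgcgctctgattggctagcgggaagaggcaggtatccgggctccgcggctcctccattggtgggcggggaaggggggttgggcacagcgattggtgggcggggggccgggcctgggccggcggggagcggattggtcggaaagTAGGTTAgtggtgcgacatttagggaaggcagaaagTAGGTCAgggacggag
There were 2 matches, while 7.55% of the 33469 promoters held at least 1 and 0.397% held at least 2. The letters were chosen to fit the elements known in this gene, so these shares are no evidence about it, and binding was not measured.

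Genes of cholesterol synthesis were lowest in replicate 4 in all 17 measured cases, against 3861 of all 14511 genes. Of the 17, 9 had an SD over 0.5, against 2.19% of all genes that passed. Msmo1, a sterol methyl oxidase, read 10.06, 8.77, 9.86 and 7.60, Idi1, which isomerises isopentenyl diphosphate, 8.85, 7.82, 8.84 and 6.6, and Sqle, squalene epoxidase, 9.23, 8.55, 9.43 and 7.70. In these the order of arrays was the same in that replicates 1 and 3 were high, replicate 2 lower and replicate 4 lowest. The mean over the 17 genes was 8.45, 7.89, 8.37 and 7.28 in replicates 1 to 4. Genes of fatty acid synthesis were mixed. Acly, which makes cytosolic acetyl-CoA (8.33, 7.77, 8.19 and 6.97), and Elovl6, a fatty acid elongase (6.41, 5.32, 6.23 and 4.94), had the same order as the cholesterol genes, while Scd, a desaturase (9.66, 11.22, 10.60 and 10.09), and Gpam, which starts glycerolipid synthesis (6.06, 7.08, 6.50 and 7.2), were lowest in replicate 1. In the fixed list of lipogenesis and cholesterol genes 13 of 19 were lowest in replicate 4, against 3861 of all 14511 genes. That list shares members with the 17, among them Idi1 and Sqle, so the 13 are not a separate count. In the hypoosmotic arrays Msmo1 had an SD of 0.58 and Idi1 one of 0.21.

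Interferon-stimulated genes were lower in replicate 1 than in the other arrays. Of 27 measured genes 26 passed (96.3%, against 69.6% of all genes). An SD over 0.5 was found in 15, against 2.19% of all genes that passed. Replicate 1 held the lowest value of 25, against 3361 of all 14511 genes. Replicate 4 held the highest value of 18, against 3522 of all 14511 genes. Ifit1 was the member that did not pass, at 1.65, 1.79, 1.66 and 1.91. It is counted among the 25 and the 18, although its values lay under the near-background level. Isg15, a ubiquitin-like modifier, read 8.54 in replicate 1 and 10.35 to 10.75 in the others, and Rsad2, the antiviral protein viperin, 9.62, 10.98, 10.98 and 11.40. Ifit3 read 8.56, 9.80, 9.97 and 10.33, and Irf7, a factor that amplifies the interferon response, 7.28, 8.50, 8.87 and 8.66. The interferon-induced chemokine genes Cxcl10 and Cxcl11 had an SD of 0.09 and 0.14, and Ifnb1, interferon beta, had a mean of 3.27. The mean over the 27 genes was 7.49 in replicate 1 and 8.27, 8.32 and 8.52 in replicates 2 to 4. In the hypoosmotic arrays the SD was 0.89 for Isg15, 0.51 for Rsad2 and 3.76 for Ifit1.

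Globin transcripts, which come from red blood cells, were all highest in replicate 4, as were 3522 of all 14511 genes. Hbb, a beta globin gene, read 5.64, 6.57, 7.44 and 8.75, Hbb-b1 4.21, 5.13, 5.79 and 7.63, and Hba-a3, an alpha globin gene, 4.06, 4.03, 4.27 and 5.17. These passed and had an SD over 0.5, while Hbg1 did not pass. Their SDs in the hypoosmotic arrays were 0.21, 0.48 and 0.06. Of the 8 erythroid markers, which include Hbb and Hbb-b1, 6 passed (75.0%, against 69.6% of all genes). The mean over the 8 was 4.23, 4.36, 4.57 and 4.99 in replicates 1 to 4. The members other than globins that passed did not share this order. Epb42 (3.77, 3.66, 3.63 and 3.09) and Slc4a1 (3.57, 3.35, 3.17 and 3.41), genes of the red cell membrane, the erythroid factor gene Klf1 (4.51, 4.13, 4.18 and 4.25) and the transferrin receptor gene Tfrc (7.85, 7.73, 7.66 and 7.78) were highest in replicate 1. Alas2 (2.93, 2.67, 3.06 and 3.37) and Ahsp (1.38, 1.64, 1.64 and 1.60), made in red cell precursors, were not above near background. Whether blood left in the tissue took part in the other values of replicate 4 was not tested.

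**Figure D5:**
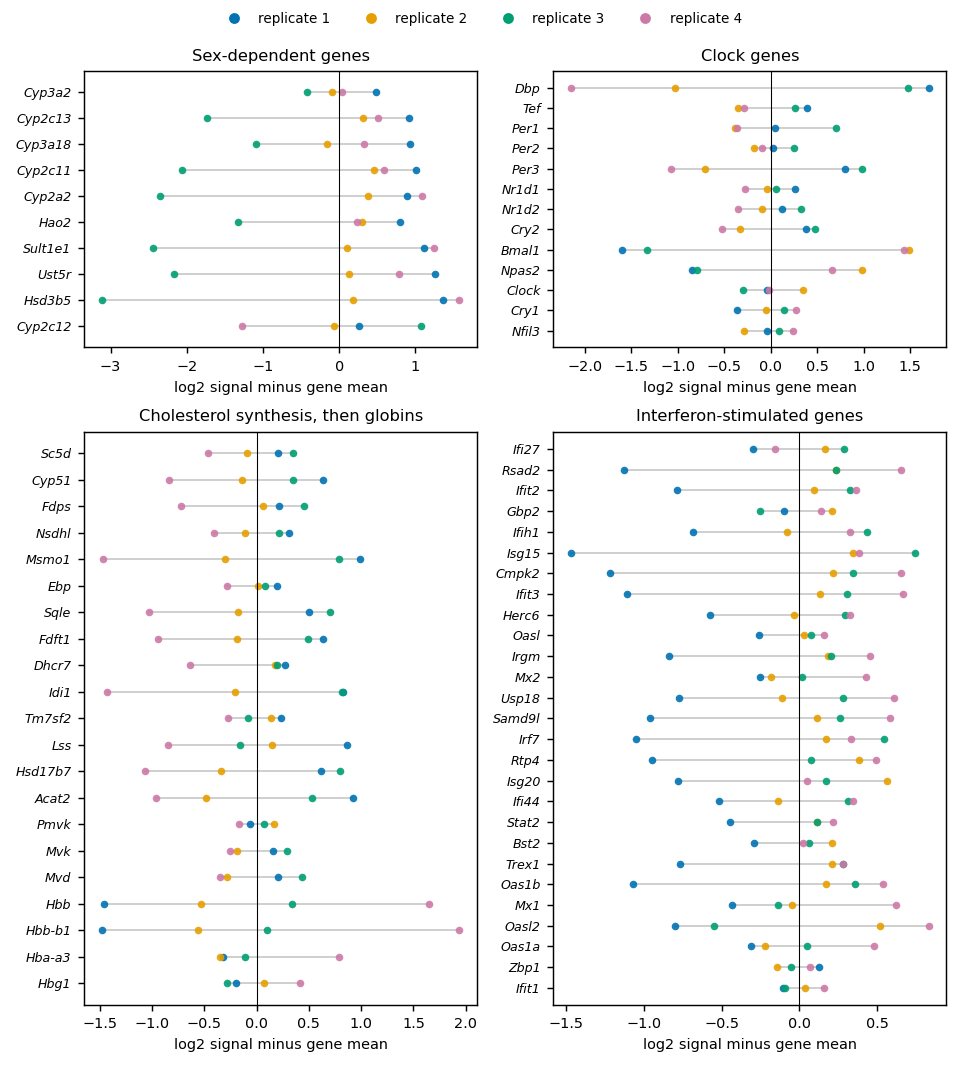
Log2 signal minus the gene's mean (horizontal axis) for genes of 5 groups put together after their values were seen, 1 coloured point per array. Replicate 3 is lowest in all 9 male-predominant genes, replicate 4 is lowest in all 17 cholesterol synthesis genes and highest in the globin genes, and replicate 1 is lowest in 25 of 27 interferon-stimulated genes.

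Other genes among the 20 with the largest SD belonged to no such group. Hsd17b2, which inactivates oestradiol and testosterone, read 9.27, 6.97, 9.61 and 7.59, with replicates 1 and 3 high. Fam111a, a protease gene linked to antiviral defence, read 3.02 in replicate 1 and 4.93 to 5.98 in the others. Akr1c2 and Akr1b7, aldo-keto reductases, read 3.79, 6.28, 3.74 and 5.10, and 3.44, 4.04, 5.59 and 3.05. Acsm3, a medium-chain acyl-CoA synthetase of the liver, read 6.93, 7.0, 5.48 and 8.16, and Dhrs7l1 read 2.45 in replicate 3 and 4.74 to 5.0 in the others.

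The same genes were also read for their spread in the 4 hypoosmotic arrays, as a description with no contrast of levels. There 431 of the 10093 genes (4.27%) had an SD over 0.5, and the median SD was 0.19. Both sets of arrays gave an SD over 0.5 for 90 genes, which is 40.7% of the 221 and 20.9% of the 431. Of the 20 widest genes, Ugt2b, Dbp, Akr1c2 and Hsd3b5 had SDs of 3.01, 1.17, 1.45 and 0.97 there, and Bmal1, Hbb, Ust5r and Cyp2c13 had 0.29, 0.21, 0.14 and 0.05. Whether the arrays of the other group came from the same days or litters is not in the labels.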

How the data were processed

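Gene expression was measured on 4 arrays of normoosmotic perfused rat liver, and titles gave the group and the replicate number. The authors deposited a table of log2 values for 27596 probe sets and 8 arrays. Per the submitters' processing notes, the tools were RMA, Transcriptome Analysis Console 4.0 and Affymetrix Expression Console, whose roles are not stated. RMA is known to equalise the distributions of arrays, so the deposited values cannot show a shift common to most genes. A genome build or scan record for the arrays is not given in the sources used here. Scanner files were not used.

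Gene names came from the annotation of the array platform, in which 15316 probe sets carried 1 gene symbol and 317 several, while 11963 stayed unnamed. A RefSeq gene table (GRCr8) updated the symbols, with 15284 found by gene identifier, 7 by accession and 25 kept as annotated, which changed 2. Of the 14511 genes, 528 had more than 1 probe set and the one with the highest mean over the 4 arrays was used.

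For each gene the log2 value minus the array's near-background level was fitted with an intercept only in limma 3.58.1 (lmFit and eBayes, R 4.3.3), tested one-sided against 0 and adjusted by Benjamini-Hochberg over all genes, with a threshold of 0.05. The spread is the sample SD of the 4 values, counted above 0.5 among genes that passed, with no test. The analysis was tested on simulated data with known answers. Tables were made with pandas 2.3.3 and plots with matplotlib 3.10.9 under Python 3.11.15. Promoters came from a RefSeq table on GRCr8, of which the 250 bases upstream of each start were searched on both strands.

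Genes were named by a rule. It took the 20 highest means, up to 6 members of each of 39 lists with the highest mean, each list's members with an SD over 0.5, the 20 largest SDs, and 51 genes given whatever their value, of which Tnfaip3, Hspa1a, Hspa1b and Stab2 were not analysed here. Further genes were chosen after their values were seen, namely the members of the sex-dependent, clock, cholesterol, interferon, globin and ribosomal protein groups, the genes that did not pass in the cytokine, chemokine and erythroid lists, Ifnb1, Oat, Sry, Errfi1, Plin2 and G0s2. The 39 lists held 842 entries, of which 750 were measured. The members, lists and tests were chosen with earlier results of these data known. The alternatives were other near-background levels, an intensity trend with robust variances, averaging or keeping all probe sets, centring, a further quantile normalization, another SD threshold and leaving out each array in turn.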

Additional observations from a re-analysis of the deposited data

Results flagged for a closer look

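Each gene given here had 1 array that stood far from the other 3, with the gap to the nearest of the others making up nearly the whole range of the 4 values. This was seen in 15 of the 217 genes given (6.91%), Ifit1 not counted. That share is near the 5.17% of all genes above the near-background level, where chance gives about 1 in 20. The odd array was replicate 1 for 6 genes, replicate 2 for 4, replicate 3 for 3 and replicate 4 for 2.

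Replicate 1 was high for the hepatocyte genes Cp (12.15, others 11.86 to 11.90) and Slc10a1 (11.39, others 10.89 to 10.97), for the Kupffer cell gene Vsig4 (7.31, others 6.61 to 6.70) and for Il5 (2.12, others 1.90 to 1.92), which lay under the near-background level. It was low for Cd74 (8.25, others 8.65 to 8.70) and for Ahsp (1.38, others 1.60 to 1.64), which was also under that level. Replicate 2 was high for Ltb (7.44, others 5.27 to 5.64), Cxcl2 (10.55, others 10.17 to 10.22) and Nfkb1 (10.12, others 10.03 to 10.04), and low for Cyp2e1 (11.77, others 11.94 to 11.97). Replicate 3 was high for Pfkfb3 (9.04, others 7.91 to 8.02) and low for S1pr1 (5.28, others 6.58 to 6.84) and Dhrs7l1 (2.45, others 4.74 to 5.0). Replicate 4 was low for Arg1 (8.86, others 9.42 to 9.50) and Icam1 (10.91, others 11.06 to 11.09).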

How the results depend on the processing

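The count of genes above the near-background level, 10093, ranged from 7739 (at least 1 log2 unit above the level) to 13149 (median of the odorant receptor genes as the level), and from 9972 to 10117 when each array was left out in turn. Over all 27596 probe sets, named or not, 16956 passed. The count of genes with an SD over 0.5, 221, was 219 to 289 with an array left out and 403 over all probe sets, and 27 genes had an SD over 1. With the 99th percentile of odorant receptor genes as the level, 8067 genes passed and 7 list counts moved by over 1.5 times, those of proliferation, cholangiocyte, neutrophil, monocyte and dendritic cell, T and NK cell, platelet and other tissue genes. Taking the mean over probe sets in place of the highest one moved 10 of the 357 levels followed by more than the gene's SD. Among them were Mcl1 from 10.77 to 8.15, Wnk1 from 8.82 to 6.86, Hadha from 9.59 to 7.89 and Mt2A from 13.29 to 13.17. Hspa8 moved from 12.07 to 11.65, Ftl1 from 11.92 to 11.47 and Gapdh from 11.53 to 11.31. Only a gene with more than 1 probe set can move in that run, and 528 of all 14511 genes had more than 1. Most of the 357 could therefore not move. Of the 357 levels, none that had passed fell under the near-background level with centring, averaged probe sets or an array left out. This is a weak check, since centring leaves a gene's mean over the arrays unchanged. The single levels were not set against the 99th percentile of odorant receptor genes. No paired analysis was possible because only 1 group was used and no contrast was made. Array signals near the background or near the top of the scale carry only a bound or may be compressed.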

Other observations

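Ribosomal protein genes had high signals as a family, and they were put together after their values were seen. All 72 measured genes lay above the near-background level, 53 were in the highest 5% of genes and 0 had an SD over 0.5, with a median of 9.59. Rps29, at 12.16, 12.23, 12.32 and 11.91, was the highest. Of the 72 genes 42 had their lowest value in replicate 4, against 3861 of all 14511 genes, and 35 their highest in replicate 3, against 3156. The mean over the 72 genes was 9.34, 9.45, 9.47 and 9.27 in replicates 1 to 4.

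Proliferation genes had the lowest median of the pathway lists, 3.86. Of the 23 measured, 16 passed (69.6%), the same share as over all genes (69.6%). With the 99th percentile of odorant receptor genes as the level, 9 of the 23 passed, and 8067 of all 14511 genes did. Pcna, the DNA polymerase clamp, led with 7.15, 7.18, 7.07 and 7.21, and the ribonucleotide reductase gene Rrm2 was highest in replicate 2 (3.79, 5.02, 3.53 and 4.04). The following genes were singled out after their values were seen. Errfi1, an inhibitor of the EGF receptor that growth factors and stress induce, ranked 33rd with 11.97, 11.92, 11.97 and 11.92. The lipid droplet genes Plin2 (8.36, 9.97, 10.48 and 9.93) and G0s2, an inhibitor of triglyceride lipase (7.52, 8.46, 9.39 and 7.29), had SDs of 0.92 and 0.96 and were both highest in replicate 3.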
